A study of Mus musculus with 10 samples.

Results

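The TGF-beta and SMAD signalling pathway was followed through 10 of its genes across 4 genotypes of mouse splenic cDC1s, the conventional dendritic cells specialised in cross-presentation: Tgfb1, Tgfbr1, Tgfbr2, Zfyve9, Smad2, Smad3, Smad4, Smad7, Ski and Skil. In all, 19938 genes were measured. The 10 were chosen because the ZEB2 protein binds SMADs and because Zfyve9 and Smad3 were known to shift in these arrays. The values of Zfyve9 and Smad3 therefore helped to choose them, and they are given as a description with no test. The other 8 were tested. Each gene was read by the 1 probe set that names it alone.

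The cells were cDC1s sorted from the spleens of WT mice (n = 3 arrays), Zeb2 KO mice (n = 3), Nfil3 Zeb2 DKO mice (n = 2) and Zeb2 Id2 DKO mice (n = 2), with 1 array a sample and no treatment labelled. Every mutant genotype is labelled as lacking Zeb2, the DKO genotypes as lacking Nfil3 or Id2 in addition. Which allele or Cre line made each deletion, the strain, the age and the sort gate are not given in the sources used here. The labels do not say whether the arrays of a genotype came from separate mice, and a p-value here reflects only how far these samples spread, which may be technical.

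TGF-beta is secreted in a latent form and, once released, joins a type II receptor (Tgfbr2) to a type I receptor kinase (Tgfbr1). The kinase phosphorylates SMAD2 and SMAD3, which the endosomal anchor protein SARA, encoded by Zfyve9, presents to the receptor. Phosphorylated SMAD2 and SMAD3 enter the nucleus with SMAD4, while SMAD7 blocks the receptor and the SKI and SnoN (Skil) proteins hold back transcription by SMADs. In dendritic cells this pathway is known for restraining activation and for inducing genes such as the integrin chain gene Itgae.

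All levels below are log2 of the deposited RMA intensity, and a level is compared only with levels of the same gene. Summed intensity of 8 cDC1 markers was 33500 to 35300 in WT and 31000 to 35700 over the mutants. Of these 8, only the adhesion molecule gene Cadm1 was called, lower in Zeb2 Id2 DKO (10.45 and 10.28) than in WT (11.21 to 11.26; log2 -0.87 [-1.10 to -0.65], limma adjusted p = 0.00225) and than in the other 2 genotypes. Nfil3 read 9.98 to 10.77 in WT but 6.20 and 7.09 where it is labelled deleted, and Id2 read 10.15 to 10.43 in WT but 5.01 and 4.98 where it is labelled deleted. Zeb2 read 5.93 to 6.30 in WT and 5.40 to 6.82 in the arrays labelled as lacking it, so its probe set does not check the deletion and the Zeb2 genotype rests on the labels. Zeb2 KO replicate 3 stood apart from its group (mean correlation with the others 0.986, against 0.991 to 0.997 for the other 9 arrays), and results that rest on it are given with and without it. The summed intensity of 8 neutrophil markers was 1300 to 1720 in WT, 2590 to 4350 in Nfil3 Zeb2 DKO, 6980 to 16000 in Zeb2 KO and 5560 to 15500 in Zeb2 Id2 DKO. In bulk RNA a changed share of another cell type and a changed level per cell cannot be told apart.

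Zfyve9 was lower in every array of every mutant genotype than in any WT array. It read 6.76, 7.08 and 6.93 in WT, 6.34 and 6.54 in Nfil3 Zeb2 DKO, 6.04, 6.08 and 5.97 in Zeb2 KO, and 5.38 and 5.43 in Zeb2 Id2 DKO. The levels thus ran from WT through Nfil3 Zeb2 DKO and Zeb2 KO down to Zeb2 Id2 DKO, and no group overlapped its neighbour. Group means were 6.92 ± 0.16 (SD, n = 3), 6.44 ± 0.14 (n = 2), 6.03 ± 0.06 (n = 3) and 5.40 ± 0.04 (n = 2) in that order. Against WT the gene lay 2.87-fold lower in Zeb2 Id2 DKO, 1.86-fold lower in Zeb2 KO and 1.40-fold lower in Nfil3 Zeb2 DKO. Set against Zeb2 KO, it was 1.32-fold higher in the arrays that also lack Nfil3 and 1.55-fold lower in those that also lack Id2. Groups of no pair of genotypes overlapped in 44 of all genes (0.221%), and 9 (0.0451%) had this order, Zfyve9 among them. Nothing is read from these shares, since Zfyve9 was chosen for its shift. The neutrophil markers were higher in the mutant groups than in WT, and among the mutants they were lowest in Nfil3 Zeb2 DKO, where Zfyve9 was highest. They spanned much the same range in Zeb2 KO and Zeb2 Id2 DKO, between which Zfyve9 differed by 0.63 log2. Their part in the Zfyve9 levels was not tested.

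Smad3, the receptor-activated SMAD that binds DNA directly, was low only in the Zeb2 Id2 DKO arrays. It read 7.13 and 6.90 there, against 8.02, 7.92 and 7.85 in WT, 8.01 and 8.11 in Nfil3 Zeb2 DKO, and 8.03, 7.87 and 8.14 in Zeb2 KO. Arrays of these 3 groups overlapped, with means of 7.93 ± 0.08 in WT (SD, n = 3), 8.06 ± 0.07 in Nfil3 Zeb2 DKO (n = 2) and 8.01 ± 0.13 in Zeb2 KO (n = 3). The Zeb2 Id2 DKO mean of 7.01 ± 0.16 (n = 2) lay 1.89-fold below WT, 2.0-fold below Zeb2 KO and 2.07-fold below Nfil3 Zeb2 DKO. Of all genes, 4.15% had both Zeb2 Id2 DKO arrays below every other array. Summed markers of 3 other cell types stood high in the same arrays. The pDC sum (7 measured) was 4940 and 4990 there and at most 3380 elsewhere, the monocyte sum (7 measured) 2780 and 3090 and at most 2440 elsewhere, and the erythroid sum (6 measured) 1900 and 2300 and at most 1620 elsewhere. Of the pDC markers, only Bst2 (11.54 and 11.66, at most 10.90 elsewhere) and Siglech (8.07 and 7.90, at most 6.87 elsewhere) lay above every other array. Tcf4, at 8.69 and 8.59, lay within the WT range of 8.52 to 8.76, so the pDC sum rests on few genes. Cadm1 was low in the Zeb2 Id2 DKO arrays too. Other cell types had lower marker levels there. The mean log2 of the T cell list (7 measured) was 6.25 and 6.31 there and at least 6.39 elsewhere. That of the NK cell list (8 measured) was 6.07 and 6.08 there and at least 6.21 elsewhere. The summed intensities of these 2 lists overlapped those of Zeb2 KO. The part of these cells, or of neutrophils, in the Smad3 level was not tested.

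**Figure D1:**
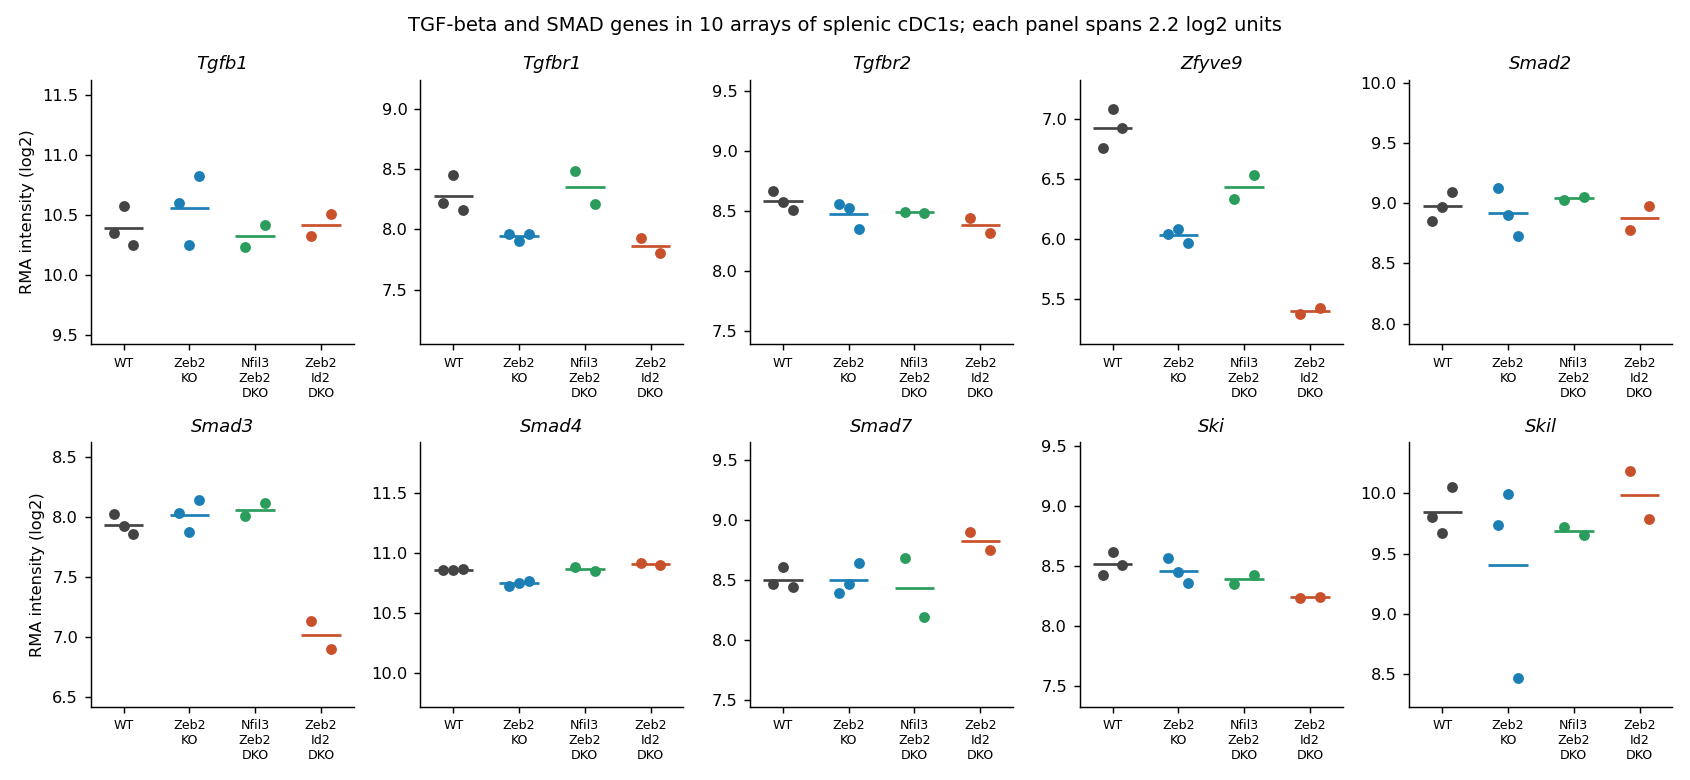
RMA intensity (log2, vertical axis) of the 10 genes in each array, by genotype; points are arrays, horizontal bars are group means, and every panel spans the same number of log2 units. Zfyve9 falls in steps from 6.92 in WT to 5.40 in Zeb2 Id2 DKO, Smad3 is low in Zeb2 Id2 DKO alone, and 1 Zeb2 KO array holds the low Skil value of 8.47.

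The bases just upstream of Zfyve9 and Smad3 are shown because these genes carry the largest differences and ZEB2 and SMAD proteins bind DNA near their targets. Sequences come from the RefSeq promoter table (build GRCm38.p6). Promoters of 6 of the 10 genes were used here. Those of Smad2, Smad4, Smad7 and Skil were not searched, so nothing is read about them. The sequences are written 5′ to 3′ on the gene's strand up to the start of the gene model. For Smad3 this is chr9:63757995-63758244 and for Zfyve9 chr4:108781270-108781338, both on the minus strand.
Smad3: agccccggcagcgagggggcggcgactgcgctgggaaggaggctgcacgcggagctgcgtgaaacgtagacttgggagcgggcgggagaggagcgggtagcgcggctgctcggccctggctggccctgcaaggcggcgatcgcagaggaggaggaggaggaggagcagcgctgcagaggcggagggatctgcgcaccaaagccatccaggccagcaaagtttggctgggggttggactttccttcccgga
Zfyve9: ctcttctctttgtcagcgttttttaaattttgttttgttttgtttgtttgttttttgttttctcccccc
Windows of 300 bases, from 250 before to 50 after the listed start, were searched on both strands for CACCTG, the E-box that ZEB proteins bind, and for CAGAC, the SMAD-binding element. Neither was found in the Smad3 or the Zfyve9 window, so no base above is in capitals. The listed Zfyve9 start lies inside its gene model, and the search window reaches further into the gene than the bases printed. CACCTG was in none of the windows of the 6 genes, against 20.2% of 32851 windows of that length. CAGAC was in the Tgfbr2 window and in 1 of the Tgfbr1 windows, against 49.6% of all. This says only that these letters are not in these windows.

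The genes whose levels followed Zfyve9 most closely over the 10 arrays were Adgrl3, a latrophilin adhesion receptor (Pearson r = 0.961), Nup93, a nuclear pore component (r = 0.953), and Adam22, an adhesion protein of the ADAM family (r = 0.953). Adgrl3 had means of 7.80 in WT, 6.71 in Nfil3 Zeb2 DKO, 6.52 in Zeb2 KO and 5.32 in Zeb2 Id2 DKO, and Adam22 of 8.51, 8.05, 7.63 and 6.68. Nup93 kept the order over a narrower range, from 9.10 in WT to 8.73 in Zeb2 Id2 DKO. Those closest to Smad3 were Eefsec, a selenocysteine elongation factor (r = 0.969), Id2 itself (r = 0.969) and the kinesin gene Kif1a (r = 0.952). Eefsec and Kif1a were low in the same arrays as Smad3: Eefsec had a mean of 10.55 in Zeb2 Id2 DKO against 10.94 in WT, and Kif1a 6.80 against 7.13. These correlations are descriptions over 10 arrays that share their genotypes. A gene that is low in both Zeb2 Id2 DKO arrays and varies little among the others scores high against Smad3.

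**Figure D2:**
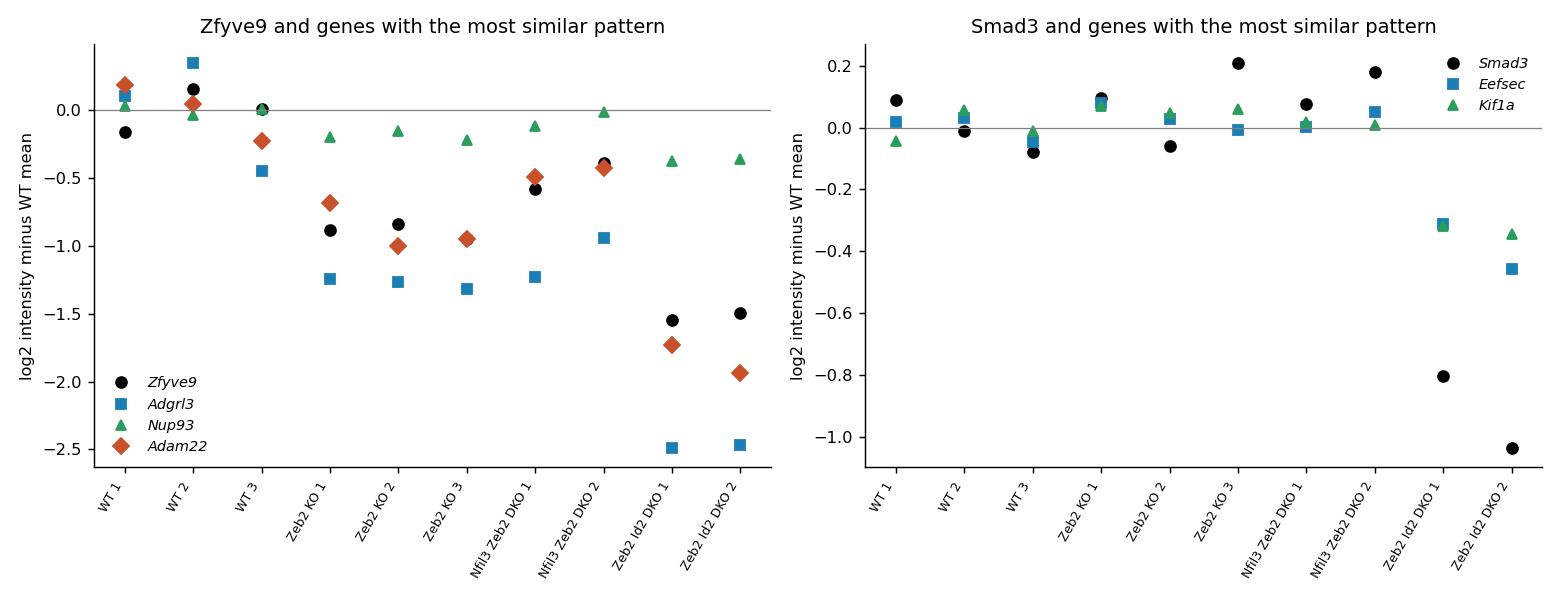
Level of each gene minus its WT mean (log2, vertical axis) in each of the 10 arrays, for Zfyve9 (left) and Smad3 (right) and the genes named as most like them. Id2, with an r of 0.969 to Smad3, is left out of the right panel because its own deletion would set the scale. Adgrl3 and Adam22 step down with Zfyve9, and Eefsec and Kif1a are low in both Zeb2 Id2 DKO arrays, as Smad3 is.

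None of the 8 tested genes passed limma's moderated test (Benjamini-Hochberg adjusted p under 0.05 over all genes) in any of 7 comparisons: the 6 pairs of genotypes and the mean of the 3 mutant genotypes against WT. The comparisons share arrays and are not independent. The share of all genes called was 0.0201% for Zeb2 KO against WT, 0.00502% for Nfil3 Zeb2 DKO against WT, 1.43% for Zeb2 Id2 DKO against WT, 0.00502% for Nfil3 Zeb2 DKO against Zeb2 KO, 0.497% for Zeb2 Id2 DKO against Zeb2 KO, 0.792% for Zeb2 Id2 DKO against Nfil3 Zeb2 DKO, and 0.236% for the mutant mean against WT. At an unadjusted p under 0.05 the 8 genes gave 1, 0, 3, 1, 3, 2 and 2 in the same order, beside 7.39%, 4.16%, 10.2%, 8.5%, 7.35%, 11.5% and 6.57% of all genes. Leaving out any 1 array called none of the 8. With array quality weights, 2 of the 8 were called in Zeb2 Id2 DKO against WT and 1 in Zeb2 Id2 DKO against Nfil3 Zeb2 DKO, all lower, where the weights called 5.4% and 5.71% of all genes.

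Among the ligand and receptors, the type I receptor gene Tgfbr1 had the largest differences, though none passed. It read 8.22, 8.45 and 8.17 in WT and 8.49 and 8.21 in Nfil3 Zeb2 DKO, against 7.96, 7.91 and 7.96 in Zeb2 KO and 7.93 and 7.80 in Zeb2 Id2 DKO. WT and Nfil3 Zeb2 DKO overlapped, as did Zeb2 KO and Zeb2 Id2 DKO, while neither of the first 2 groups overlapped either of the last 2. The log2 difference from WT was -0.33 [95% confidence interval -0.56 to -0.11] in Zeb2 KO (limma adjusted p = 0.434) and -0.41 [-0.66 to -0.17] in Zeb2 Id2 DKO (adjusted p = 0.13). With array weights the second passed (limma adjusted p = 0.0285), as did the difference between Zeb2 Id2 DKO and Nfil3 Zeb2 DKO (-0.49, adjusted p = 0.111, and 0.0257 with weights). Over all alternatives these adjusted p-values reached 0.67 and 0.677. The groups with low Tgfbr1 were those with the most neutrophil signal and the lowest mean log2 of 7 T cell markers. That mean was 6.39 to 6.49 in Zeb2 KO and 6.25 to 6.31 in Zeb2 Id2 DKO. It was 6.59 to 6.82 in WT and 6.82 to 6.94 in Nfil3 Zeb2 DKO. The part of either cell type in the Tgfbr1 level was not tested.

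Tgfbr2, the ligand-binding type II receptor gene, read 8.67, 8.58 and 8.51 in WT and 8.44 and 8.32 in Zeb2 Id2 DKO, with Zeb2 KO at 8.56, 8.52 and 8.36 and Nfil3 Zeb2 DKO at 8.50 and 8.49. The Zeb2 Id2 DKO arrays lay below all WT arrays and overlapped those of Zeb2 KO, and the log2 difference from WT was -0.20 [-0.41 to 0.00] (limma adjusted p = 0.497). Tgfb1, the ligand gene, overlapped among all groups, from 10.23 to 10.82, and its highest value came from Zeb2 KO replicate 3. Its log2 difference from WT in the mutant mean was 0.04 [-0.23 to 0.31] (limma adjusted p = 1) and -0.0060 without that array.

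The other receptor-activated SMAD, Smad2, did not share the pattern of Smad3. It read 8.86, 8.97 and 9.10 in WT, 9.03 and 9.05 in Nfil3 Zeb2 DKO, 9.13, 8.90 and 8.73 in Zeb2 KO, and 8.78 and 8.98 in Zeb2 Id2 DKO. Every mutant group overlapped WT, and the log2 difference from WT in Zeb2 Id2 DKO was -0.10 [-0.37 to 0.17] (limma adjusted p = 0.941), where Smad3 had -0.92. The difference between these 2 genes' responses was not tested. Smad4, the common partner of both, varied least: 10.85 to 10.86 in WT, 10.85 and 10.88 in Nfil3 Zeb2 DKO, 10.72 to 10.77 in Zeb2 KO, and 10.90 and 10.92 in Zeb2 Id2 DKO. Its whole range was 0.19 log2, and 3.72% of all genes had a narrower one. The Zeb2 KO arrays lay below all others, and the Zeb2 Id2 DKO arrays lay above all others, as in 5.01% of all genes. The log2 difference of Zeb2 KO from WT was -0.11 [-0.25 to 0.03] (limma adjusted p = 0.773). Zeb2 Id2 DKO minus Zeb2 KO was 0.16 [0.0040 to 0.32] (limma adjusted p = 0.663).

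Of the inhibitors, Smad7, which a SMAD signal itself induces, was highest in the Zeb2 Id2 DKO arrays. It read 8.90 and 8.75 there, against 8.46, 8.60 and 8.44 in WT, 8.68 and 8.19 in Nfil3 Zeb2 DKO, and 8.39, 8.47 and 8.64 in Zeb2 KO. The Zeb2 Id2 DKO arrays lay above all others by a small margin, and the log2 difference from WT of 0.32 [0.01 to 0.63] did not pass (limma adjusted p = 0.459). Against Nfil3 Zeb2 DKO it was 0.39 [0.05 to 0.72] (limma adjusted p = 0.353), and 0.63 without Nfil3 Zeb2 DKO replicate 1 or 0.14 without replicate 2. Of all genes, 5.01% had both Zeb2 Id2 DKO arrays above every other array.

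Ski, a corepressor that binds SMADs, read 8.24 in both Zeb2 Id2 DKO arrays, below all others: 8.43, 8.62 and 8.51 in WT, 8.36 and 8.42 in Nfil3 Zeb2 DKO, and 8.57, 8.45 and 8.36 in Zeb2 KO. The other 3 groups ran into each other except that both Nfil3 Zeb2 DKO arrays lay below WT. The log2 difference of Zeb2 Id2 DKO from WT was -0.28 [-0.48 to -0.08] (limma adjusted p = 0.238, 0.037 with array weights and up to 0.748 over all alternatives). Its relative Skil, a SMAD target that feeds back on the pathway, owed its spread to 1 array. It read 9.74, 10.00 and 8.47 in Zeb2 KO, the low value being replicate 3, against 9.80, 9.67 and 10.05 in WT, 9.72 and 9.65 in Nfil3 Zeb2 DKO, and 10.18 and 9.79 in Zeb2 Id2 DKO. The log2 difference of Zeb2 KO from WT was -0.44 [-1.14 to 0.26] (limma adjusted p = 0.854) with that array and 0.03 (adjusted p = 0.958) without it. Likewise Zeb2 Id2 DKO minus Zeb2 KO went from 0.58 to 0.12, and Nfil3 Zeb2 DKO minus Zeb2 KO from 0.28 to -0.18.

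**Figure D3:**
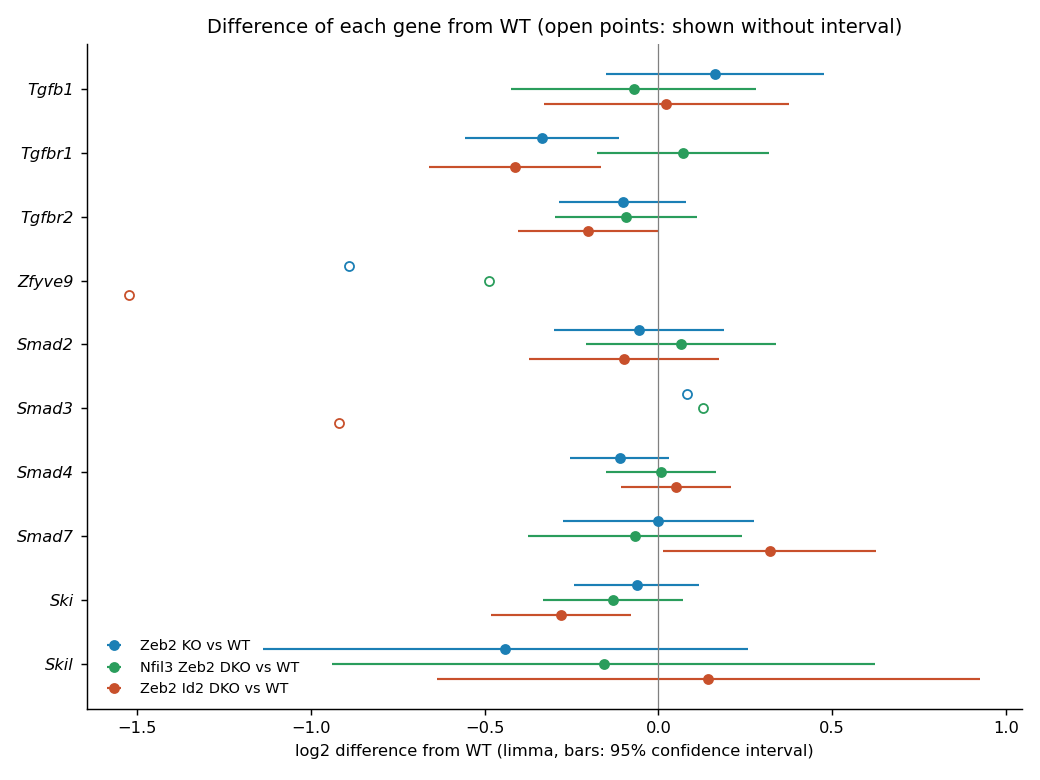
Log2 difference from WT (horizontal axis) of each gene in the 3 mutant genotypes. Bars are 95% confidence intervals of the limma fit; Zfyve9 and Smad3, chosen for their shift, are open points without intervals. Intervals of Tgfbr1 in Zeb2 KO and Zeb2 Id2 DKO lie below 0, and those of Skil are the widest.

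In Zeb2 Id2 DKO against WT, 5 of the 8 tested genes had groups that did not overlap, 3 lower and 2 higher, where 31.4% of all genes did (16.2% lower and 15.2% higher). In Zeb2 KO against WT 2 of 8 lay wholly lower (Tgfbr1 and Smad4, beside 5.03% of all genes) and in Nfil3 Zeb2 DKO against WT 2 of 8 (Tgfbr2 and Ski, beside 10.7%), and none lay wholly higher in either. The median log2 difference of the 8 against WT was -0.04 in Zeb2 Id2 DKO, -0.08 in Zeb2 KO and -0.07 in Nfil3 Zeb2 DKO, beside -0.01, -0.0030 and 0.01 over all genes.

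Beyond these genes, a list of 119 pathway genes was followed, of which 115 were measured here. None passed in Zeb2 KO or Nfil3 Zeb2 DKO against WT, in Nfil3 Zeb2 DKO against Zeb2 KO or in the mutant mean against WT. At an unadjusted limma p under 0.05 these comparisons gave 18, 4, 17 and 15 of 115, beside 7.39%, 4.16%, 8.5% and 6.57% of all genes. With array weights 1, 1, 0 and 5 passed, beside 0.376%, 0.115%, 0.0201% and 1.39% of all genes. In Zeb2 Id2 DKO 2 of 115 rose against WT (1.74%, beside 0.878% of all genes), 3 against Zeb2 KO (2.61%, beside 0.366%) and 2 against Nfil3 Zeb2 DKO (1.74%, beside 0.582%), and none fell. These counts are small and moved with single arrays: without Zeb2 KO replicate 3, 4 rose and 3 fell against WT, 3 rose against Zeb2 KO and 5 rose against Nfil3 Zeb2 DKO. The whole table then had 760, 148 and 704 called genes, from 286, 99 and 158. Over all arrays left out, these whole-table counts ran from 67 to 760, 25 to 148 and 23 to 704. Without WT replicate 1, 3 rose and 3 fell against WT, 1 rose against Zeb2 KO and 3 rose against Nfil3 Zeb2 DKO. With array weights 5 rose and 6 fell against WT, where the weights called 5.4% of all genes. With all arrays and none of the alternatives applied, the called genes were Pmepa1, Usp11 and Ltbp2.

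Pmepa1, a transmembrane protein gene induced by TGF-beta whose product binds SMADs and dampens the signal, was highest in Zeb2 Id2 DKO. It read 9.04 and 9.06 there, 8.43, 8.65 and 8.60 in Zeb2 KO, 8.15, 8.15 and 8.26 in WT, and 8.14 and 8.10 in Nfil3 Zeb2 DKO. No group overlapped another, as in 44 of all genes (0.221%). The gap between WT and Nfil3 Zeb2 DKO was narrow, from 8.150 to 8.135. It rose against WT (log2 0.86 [0.67 to 1.06], limma adjusted p = 0.00121) and against Nfil3 Zeb2 DKO (0.93 [0.72 to 1.15], limma adjusted p = 0.00205), and both calls held under all 18 alternatives (adjusted p up to 0.0234 and 0.0354). The rise over Zeb2 KO (0.49 [0.29 to 0.69], limma adjusted p = 0.0442) was lost in 13 of 18 alternatives, among them leaving out any array but Zeb2 KO replicate 3 (adjusted p up to 0.387). Zeb2 KO against WT had 0.38 [0.20 to 0.55] and did not pass (limma adjusted p = 0.212).

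Usp11, which encodes a deubiquitinase known to act on the type I receptor, read 8.002 and 7.92 in Zeb2 Id2 DKO, above 7.26 and 7.34 in Nfil3 Zeb2 DKO, 7.43, 7.23 and 7.40 in WT, and 7.16, 6.89 and 6.96 in Zeb2 KO. WT and Nfil3 Zeb2 DKO overlapped and Zeb2 KO lay below both. Usp11 rose by 0.96 log2 [0.73 to 1.19] over Zeb2 KO (limma adjusted p = 0.00261), which was lost when Zeb2 Id2 DKO replicate 1 was left out (0.0516) and in a fit of those 2 groups alone (0.0624). It rose by 0.61 [0.38 to 0.84] over WT (limma adjusted p = 0.0162), a call lost when either Zeb2 Id2 DKO array (0.18 and 0.124), WT replicate 2 (0.0672) or WT replicate 3 (0.0567) was left out. It rose by 0.66 [0.41 to 0.91] over Nfil3 Zeb2 DKO (limma adjusted p = 0.0258), a call lost when either Nfil3 Zeb2 DKO array (0.268 and 0.103), either Zeb2 Id2 DKO array (0.191 and 0.148) or WT replicate 3 (0.0502) was left out.

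Ltbp2, a matrix protein gene of the latent TGF-beta binding protein family, was low in Zeb2 KO. It read 7.69, 7.47 and 7.76 there, against 8.34, 8.92 and 8.35 in WT, 8.17 and 8.37 in Nfil3 Zeb2 DKO, and 8.75 and 8.48 in Zeb2 Id2 DKO. The Zeb2 KO arrays lay below all others, and WT overlapped both DKO groups. It was higher in Zeb2 Id2 DKO than in Zeb2 KO (log2 0.98 [0.59 to 1.36], limma adjusted p = 0.0437), a call lost in 11 of 18 alternatives, among them every array left out except Zeb2 KO replicate 3 and WT replicate 2 (adjusted p up to 0.497). Zeb2 KO against WT had -0.89 [-1.24 to -0.55] and did not pass (limma adjusted p = 0.146).

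**Figure D4:**
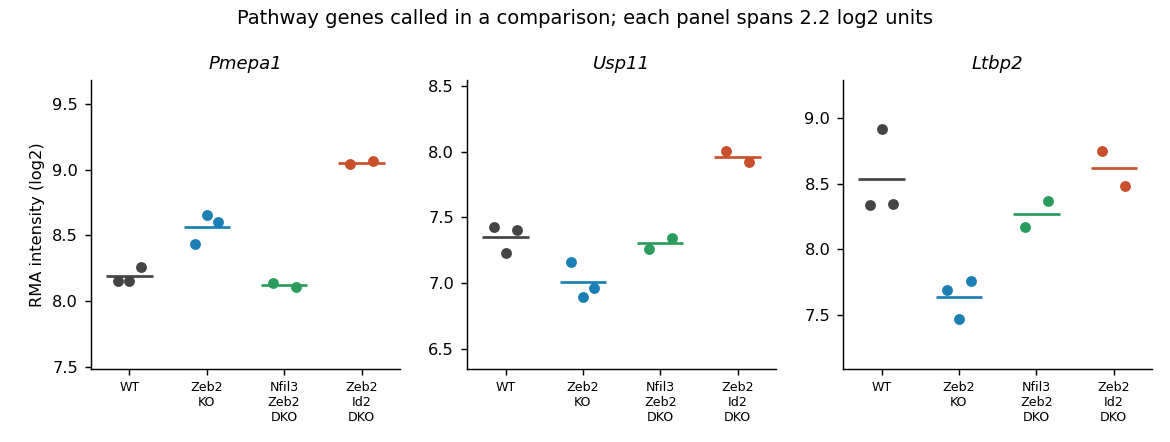
RMA intensity (log2, vertical axis) of Pmepa1, Usp11 and Ltbp2 in each array by genotype, with group means as bars. Pmepa1 is stepped from WT through Zeb2 KO to Zeb2 Id2 DKO, Usp11 is highest in Zeb2 Id2 DKO, and Ltbp2 is lowest in Zeb2 KO at 7.47 to 7.76.

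By role, genes known to respond to TGF-beta lay mostly below WT: 21 of 27 were lower in Zeb2 KO (median log2 difference -0.15) and 21 of 27 in Zeb2 Id2 DKO (median -0.16), with medians of -0.0030 and -0.01 over all genes. In Nfil3 Zeb2 DKO 14 of 27 were lower (median -0.03). Of all 19938 genes, 10170 were lower in Zeb2 KO, 10643 in Zeb2 Id2 DKO and 9129 in Nfil3 Zeb2 DKO. The list does not separate genes that TGF-beta raises from genes that it lowers. With all arrays and none of the alternatives applied, none passed the test in a comparison, and the comparisons share the WT arrays. Cd207, the langerin gene, had the smallest p of this list for the mutant mean. It read 8.0, 8.03 and 8.08 in WT and 6.67 to 7.82 in the 7 mutant arrays, all below WT, as in 1.09% of all genes. Its log2 difference was -0.77 [-1.17 to -0.36] (limma adjusted p = 0.198). It passed in only 2 of 17 alternatives: with array weights (0.0148) and without Zeb2 KO replicate 3 (0.0142). The stress response gene Gadd45b, second by p, had -0.50 [-0.82 to -0.18] (limma adjusted p = 0.343). The integrin chain gene Itgb7 went the other way, at 0.54 log2 for Zeb2 Id2 DKO against WT, where 6 of 27 were positive. It passed in some alternatives, with limma adjusted p from 0.00929 (array weights) to 0.0398 (only the groups compared). Itgae had 0.94 log2 for Zeb2 Id2 DKO against Nfil3 Zeb2 DKO, where 9 of 27 were positive and 18 negative. It passed in some alternatives, with limma adjusted p from 0.0137 (array weights) to 0.0447 (replicate block).

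Among 24 SMAD nuclear partners, 18 lay above and 6 below the WT level in Zeb2 Id2 DKO (median 0.10), and none passed. Of all 19938 genes, 9295 lay above WT there. The AP-1 gene Fosl2 read 8.92, 9.56 and 9.46 in WT and 8.55 to 8.85 in the mutant arrays, all below WT. Its log2 difference was -0.67 [-0.93 to -0.41] for the mutant mean (limma adjusted p = 0.0623), and it passed in 3 of 17 alternatives: with array weights (0.00633), without WT replicate 1 (0.00237) and without Zeb2 KO replicate 3 (0.025). In Zeb2 Id2 DKO against WT Fosl2 passed in 5 of 18 alternatives, with the adjusted p between 0.00223 and 0.365 over all 18. Atf3, a stress-induced factor, had -0.36 [-0.69 to -0.03] (limma adjusted p = 0.69). Of 30 receptor and SMAD regulators, 18 lay below WT in Zeb2 KO and 21 above WT in Zeb2 Id2 DKO (medians -0.05 and 0.05). Dab2, an endocytic adaptor of the receptors, had -0.44 [-0.67 to -0.21] for the mutant mean (limma adjusted p = 0.198). It passed in only 2 of 17 alternatives: with array weights (0.0301) and without WT replicate 1 (0.0307).

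Ligand genes other than Tgfb1 and their activators numbered 18 and had a median of -0.04 for the mutant mean. Lrrc32, whose product GARP holds latent TGF-beta at the cell surface, had -0.37 [-0.69 to -0.06] (limma adjusted p = 0.609). The 12 other receptors and co-receptors had a median of -0.0041, with Acvr2b, an activin receptor gene, at 0.14 [-0.01 to 0.29] (limma adjusted p = 0.835) and the co-receptor gene Eng at -0.18 [-0.38 to 0.02] (limma adjusted p = 0.856). The 4 SMADs outside the 10 genes, which serve BMP signals or inhibit them, had a median of -0.04, with Smad5 at -0.10 [-0.26 to 0.06] and Smad9 at 0.09 [-0.06 to 0.23] (limma adjusted p = 1 for both).

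**Figure D5:**
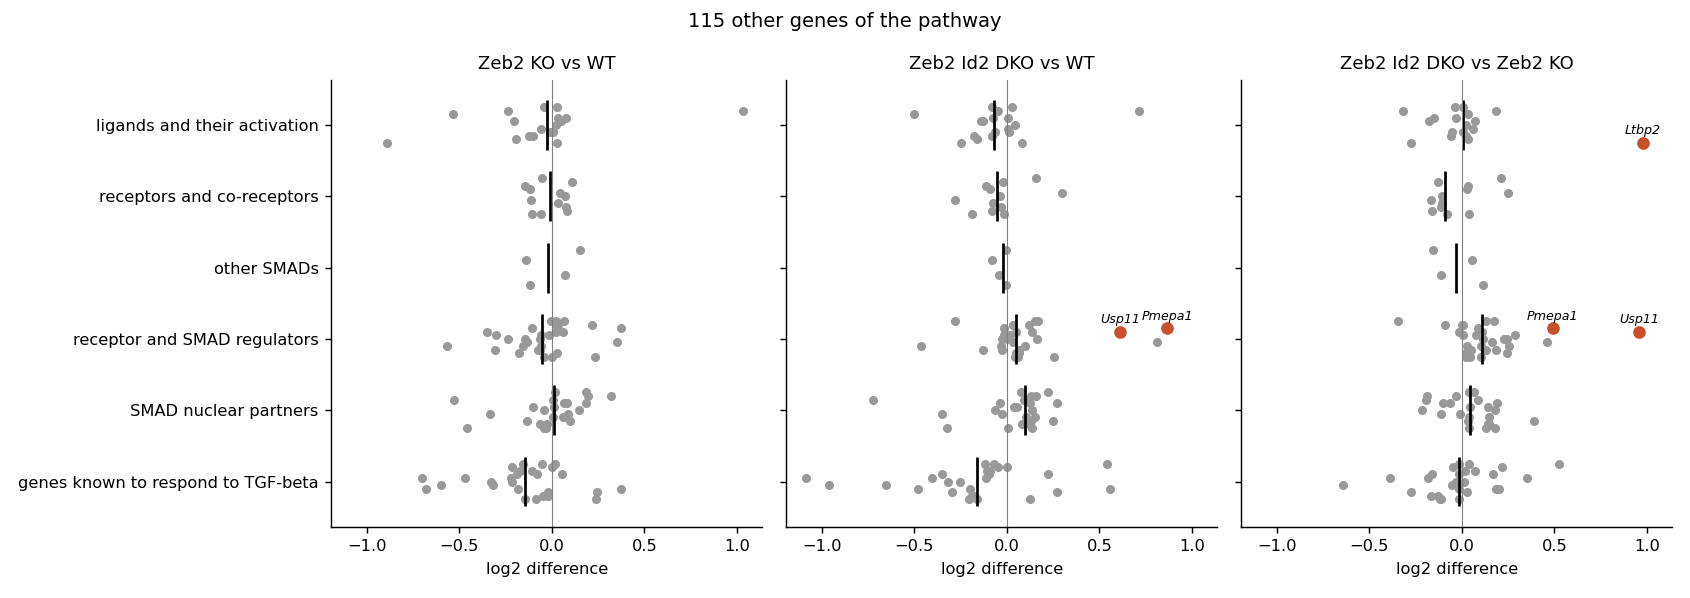
Log2 difference (horizontal axis) of 115 pathway genes grouped by role, in Zeb2 KO against WT, Zeb2 Id2 DKO against WT and Zeb2 Id2 DKO against Zeb2 KO. Grey points did not pass, red points passed (limma adjusted p under 0.05), and black bars are medians. Red points are Pmepa1, Usp11 and Ltbp2, all higher, and the median of the responsive genes lies left of 0 in both comparisons with WT, where 21 of 27 lie below 0 and 6 above. Of all 19938 genes, 10170 lie below 0 in Zeb2 KO against WT and 10643 in Zeb2 Id2 DKO against WT.

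Of the marker lists of other cell types, the neutrophil list changed most: 7 of 8 members rose in Zeb2 Id2 DKO against WT, 1 of 8 in Zeb2 KO against WT and none in Nfil3 Zeb2 DKO against WT (median log2 differences 2.65, 2.74 and 1.13), by the same limma test. Of all 19938 genes, 175 (0.878%), 1 and 0 rose in the same order, so these counts do not rank the genotypes. In Zeb2 Id2 DKO against WT 111 of all genes fell. In Zeb2 Id2 DKO against WT, 2 of 6 erythroid, 2 of 7 pDC (Siglech and Bst2) and 1 of 7 monocyte markers also rose. In the same comparison 3 of 7 T cell, 2 of 8 red pulp macrophage, 1 of 8 NK cell and 1 of 8 cDC1 markers fell, and no B cell or cDC2 marker was called. Platelet markers, measured because platelets are rich in TGF-beta, were not called in a comparison, and their summed intensity was 535 to 576 in WT, 540 and 549 in Zeb2 Id2 DKO, and 515 to 664 in Zeb2 KO. Nfil3 Zeb2 DKO had 1170 in replicate 1 and 640 in replicate 2. The high value came from 1 array, with Pf4 at 8.29 and Ppbp at 8.08 against 5.97 and 5.44 in the other. The Pmepa1 level was higher in both groups with the most neutrophil signal, and Usp11 was high in the arrays with the high pDC, monocyte and erythroid sums. The part of these cells in the levels of Pmepa1, Usp11 and Ltbp2 was not tested. Array intensities have no true 0, so no marker could be called absent.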

How the data were processed

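Arrays were processed in Affymetrix Expression Console with RMA, per the submitters' processing notes. The values deposited by the authors are linear RMA intensities, and log2 was taken of them; the annotation version was not given in the sources used here, and RMA compresses differences of dim probe sets. Of 28853 probe sets 21789 name 1 gene, and the set with the highest mean was used where a gene has several (19938 genes). limma 3.58.1 in R 4.3.3 fitted a mean per genotype to all 10 arrays (6 residual degrees of freedom), with Benjamini-Hochberg adjustment over all genes within each comparison. The fit was tested on simulated data. The number of arrays limits precision: the median 95% interval of a log2 difference reached 0.18 to 0.26 to either side. The genes and lists were chosen with earlier results of these data known. Named besides the 10 genes were list members called in any comparison, the 2 smallest p of each list for the mutant mean, and the 3 genes most correlated with Zfyve9 and Smad3, leaving out predicted genes, small RNAs, olfactory and vomeronasal receptors and antigen receptor segments. Itgb7 and Itgae were added as responsive genes with positive differences that passed in some alternatives. Lists of 8 markers covered cDC1, cDC2, pDC, monocyte, red pulp macrophage, neutrophil, B, T, NK, erythroid and platelet cells. Of the lists' 119 pathway genes, 4 were not analysed here. Alternatives were the mean of probe sets, quantile normalization, median centring, a filter on dim genes, a trended prior, array weights, only the groups compared, a replicate block and each array left out.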

Additional observations from a re-analysis of the deposited data

How the results depend on the processing

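The count of tested members that passed stayed at 0 in all comparisons and alternatives except with array weights (2 in Zeb2 Id2 DKO against WT, 1 against Nfil3 Zeb2 DKO). The cause of this and the following changes was not tested. Array weights changed the genes called over the whole table to 75 (Zeb2 KO against WT), 23 (Nfil3 Zeb2 DKO against WT), 1076 (Zeb2 Id2 DKO against WT), 4 (Nfil3 Zeb2 DKO against Zeb2 KO), 256 (Zeb2 Id2 DKO against Zeb2 KO), 1139 (Zeb2 Id2 DKO against Nfil3 Zeb2 DKO) and 277 (mutant mean), from 4, 1, 286, 1, 99, 158 and 47. Called pathway genes became 1, 1, 11, 0, 4, 8 and 5. With only the groups compared, the first 3 counts and the next 3 were 1, 2, 554, 1, 20 and 833, and called pathway genes 6, 0 and 7 in Zeb2 Id2 DKO against WT, Zeb2 KO and Nfil3 Zeb2 DKO. Median centring gave 0 for Zeb2 KO against WT and 23 for the mutant mean, and quantile normalization 1 pathway gene for Zeb2 Id2 DKO against Zeb2 KO. Leaving out 1 array gave 0 to 165, 1 to 7, 67 to 760, 1 to 106, 25 to 148, 23 to 704 and 6 to 238 genes over the whole table, in the order above, and 0 to 3, 0 to 1, 1 to 7, 0, 0 to 3, 1 to 5 and 0 to 3 pathway genes. Among the arrays left out, Zeb2 KO replicate 3 gave the highest whole-table count of each comparison, equalled by Nfil3 Zeb2 DKO replicate 2 (7) in Nfil3 Zeb2 DKO against WT.

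The replicate numbers did not pair the arrays (correlations of same-numbered deviations -0.312 to 0.162). The replicate block gave 8 genes for Zeb2 KO against WT, 183 for Zeb2 Id2 DKO against WT, 24 for the mutant mean and 1 pathway gene for Zeb2 Id2 DKO against Zeb2 KO. Signs turned only in differences near 0 or resting on Zeb2 KO replicate 3. For the mutant mean, Tgfb1 had -0.048 with array weights, -0.032 without WT replicate 3 and -0.0060 without Zeb2 KO replicate 3 (to 0.13 with another array left out). Smad2 had 0.031 without WT replicate 3, 0.0017 without Zeb2 KO replicate 3 and 0.0032 without Zeb2 Id2 DKO replicate 1 (to -0.090). Skil had 0.0094 with array weights and 0.0048 without Zeb2 KO replicate 3 (to -0.25). Skil without that array was 0.027 in Zeb2 KO against WT (to -0.74) and -0.18 in Nfil3 Zeb2 DKO against Zeb2 KO (to 0.58), which was -0.13 with array weights. Zfyve9 and Smad3 kept their direction in every comparison whose groups did not overlap. Leaving out or reweighting arrays cannot turn the sign of such a difference, so nothing is read from this.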
